A study of Homo sapiens with 10 samples.

Results

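The Krüppel-like factors (KLF) considered here are KLF3, KLF4, KLF5, KLF6, KLF7, KLF9, KLF10, KLF12 and KLF13, and what was measured is acetylated lysine 27 of histone H3 (H3K27ac) over the regions that the deposited annotation assigns to these genes. All rows of the annotated count table whose gene symbol is a member were taken, which gave 53 regions of 67387 annotated ones, out of 169637 counted. The regions fell to 8 of the 9 genes: KLF6 had 23, KLF9 had 8, KLF7 had 7, KLF5 had 6, KLF4 had 4, KLF10 had 3, and KLF3 and KLF12 had 1 each. No row carried KLF13, so its H3K27ac was not analysed here. All regions have the same width, so levels can be compared between regions. By the deposited annotation 17 regions lay within 1 kb of a transcription start ("promoter"), 8 lay between 1 and 3 kb from one ("flank"), and the other 28 ("distal") lay farther away, in introns or exons, in a 3' UTR or between genes. Of the 28 distal regions 19 belonged to KLF6. All 53 passed the filter on low counts.

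KLF proteins are transcription factors with C-terminal zinc fingers of the C2H2 type that read GC-rich DNA and CACCC boxes, close relatives of the SP factors. The family works as a set of opposed switches: KLF5 usually activates genes of growing epithelium, KLF4 and KLF6 are better known for restraining the cell cycle and promoting differentiation, and KLF3, KLF9, KLF10 and KLF12 mostly repress by recruiting CtBP or SIN3A. Nucleosomes at active promoters and enhancers carry H3K27ac, which is placed by EP300 and CREBBP. The mark is a measure of chromatin activity at a gene, not of its transcript.

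The cells were H1975, an established human lung adenocarcinoma line with mutant EGFR. The DMSO group was grown without drug for 21 days and then in DMSO for 3 days. The osimertinib DTP group received 500 nM osimertinib, an EGFR inhibitor, for 24 days, and DTP stands for drug tolerant persister, the cells left after treatment. The third group received 500 nM osimertinib for 21 days and then 150 nM AZD5153 for 3 days, and the labels do not say whether osimertinib was kept on. Each group had 3 replicates, described as biological triplicates, and 1 pooled input library served as background. The groups come from 1 line, and the treated cells are those that survived, so selection of cells and a change within cells cannot be told apart, nor can fewer acetylated cells and less acetylation per cell. All 5 epithelial markers had promoter regions, with levels of 9.04 to 63.0 CPM (counts scaled to library size) in DMSO, and none of the 3 blood markers had any. Of the lung markers 4 of 5 had a promoter region, and SFTPC had none. Levels in DMSO, osimertinib DTP and AZD5153 were 8.2, 1.27 and 3.04 CPM for FOXA2 and 7.53, 4.32 and 1.97 CPM for SFTPB. NAPSA stood at 21.8 CPM in DMSO and 15.4 CPM with AZD5153, and lower still in osimertinib DTP. NKX2-1 went the other way, at 11.7, 24.3 and 29.4 CPM. Promoter regions of the fibroblast markers COL1A1 and PDGFRB were at 7.49 and 2.89 CPM without drug, at 24.7 and 19.3 CPM after osimertinib and at 18.8 and 29.9 CPM after AZD5153, and the endothelial marker CDH5 stood at 13.5, 19.8 and 18.1. The other endothelial marker, PECAM1, had no promoter region. The part of these marker differences in the KLF results was not tested.

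The 9 H3K27ac libraries held 6263443 to 10463351 counts each, and osimertinib DTP + AZD5153 replicate 3 was the lowest. A pair of libraries stood apart in where their counts lay. The share of annotated counts in promoter regions was 59.8% in osimertinib DTP replicate 2 and 66.7% in osimertinib DTP + AZD5153 replicate 3, against 40.3 to 45.9% in the other 7. At the KLF regions the same 2 libraries were highest, at 49.6 and 57.3% against 33.5 to 40.9%. Results are therefore also given without both libraries. Levels below are CPM scaled with TMM factors. In the deposited annotation every region had a peak in all 3 libraries of at least 1 group, so a region had to be acetylated in some condition to appear. All 53 KLF regions had a peak in all 3 DMSO libraries, where 75.8% of annotated regions did. Shares among annotated regions with a peak in all 3 DMSO libraries are therefore given too. Input counts at KLF regions ran from 3 to 31 with a median of 11, against a median of 13 over all annotated regions.

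Sequences before RefSeq starts were at hand for 7 of the 9 genes, at 14 positions in all, and not for KLF3 and KLF10. The 14 include a start of KLF13. The 250 bases before the start are shown for KLF4, KLF6, KLF7 and KLF9, the genes on which the results below turn, so that their different base composition can be seen beside their H3K27ac. The sequences are from RefSeq on GRCh38.p14, all 4 on the minus strand, written 5' to 3' as the gene reads. Capitals mark GGGCGG, the GC box that SP and KLF factors read, CACCC, and TGANTCA, the letters of an AP-1 site, each searched on both strands. GGGCGG and CACCC can share letters.
KLF4, chr9:107489770-107490019: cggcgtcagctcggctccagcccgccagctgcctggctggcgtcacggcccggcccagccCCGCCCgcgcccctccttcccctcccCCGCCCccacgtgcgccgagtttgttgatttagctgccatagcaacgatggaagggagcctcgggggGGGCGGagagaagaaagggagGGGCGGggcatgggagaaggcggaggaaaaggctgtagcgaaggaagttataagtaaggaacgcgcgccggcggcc
KLF6, chr10:3785210-3785459: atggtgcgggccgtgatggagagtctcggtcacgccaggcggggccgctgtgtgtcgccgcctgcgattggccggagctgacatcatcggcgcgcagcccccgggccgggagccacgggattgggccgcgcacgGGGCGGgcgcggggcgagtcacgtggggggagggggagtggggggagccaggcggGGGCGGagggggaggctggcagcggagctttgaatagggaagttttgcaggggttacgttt
KLF7, chr2:207166857-207167106: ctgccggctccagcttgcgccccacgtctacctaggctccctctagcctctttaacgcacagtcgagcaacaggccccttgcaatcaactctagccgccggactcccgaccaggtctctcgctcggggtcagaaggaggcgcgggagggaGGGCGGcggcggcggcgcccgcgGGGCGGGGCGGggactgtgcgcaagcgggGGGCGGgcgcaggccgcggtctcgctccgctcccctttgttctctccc
KLF9, chr9:70414658-70414907: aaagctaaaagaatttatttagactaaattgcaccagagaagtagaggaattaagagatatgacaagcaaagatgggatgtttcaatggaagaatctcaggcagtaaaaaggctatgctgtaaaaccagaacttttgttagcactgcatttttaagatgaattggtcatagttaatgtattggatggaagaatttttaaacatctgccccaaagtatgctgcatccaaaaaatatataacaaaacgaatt
The KLF4 sequence holds 4 GC boxes and is 69.2% GC, the KLF6 sequence holds 2 and is 72.4% GC, and the KLF7 sequence holds 4 and is 72.0% GC. RefSeq lists 4 starts of KLF7, and the sequence shown is the richest in GC. The other 3 are 41.6, 58.0 and 43.2% GC and hold no GGGCGG. The KLF9 sequence holds none of the 3 motifs and is 32.4% GC. Over all 14 KLF starts GGGCGG occurred before 6, CACCC before 7 and TGANTCA before 1. Among 35116 RefSeq promoters of the same length the shares were 42.6%, 54.7% and 6.57%. These matches are letters in a window and were not tested for binding. The H3K27ac regions overlapped the shown stretches of KLF4 and KLF7 and lay 126 bp from that of KLF6 and 161 bp from that of KLF9.

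KLF promoters were well acetylated. The median level over all libraries was 18.4 CPM at the 17 KLF promoter regions, against 11.9 CPM at all 24296 annotated promoter regions. The KLF distal median was 7.21 CPM, near the 6.54 CPM of all distal regions. The highest KLF promoter region was that of KLF6 at chr10:3784583-3785084, 99 bp downstream of its start, with means of 58.2 ± 37.2 CPM (SD, n = 3) in osimertinib DTP and 80.1 ± 52.5 CPM with AZD5153. Its libraries read 42.2, 44.6 and 33.3 CPM in DMSO, then 39.4, 101.0 and 34.2 CPM in osimertinib DTP, and 50.7, 48.9 and 141.0 with AZD5153. The high treated means came from the 2 libraries that stood apart. The highest distal level was at KLF9, 5.8 kb upstream of its start. KLF7, a factor best known from neurons, had a promoter region at 42.4 ± 5.97 CPM in DMSO, and KLF10, the TGF-beta-inducible early gene, one at 30.4 ± 3.2 CPM. The lowest promoter region was also one of KLF7, 607 bp upstream of a start, at 4.77 ± 0.343 CPM in DMSO.

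The first comparison asked where KLF acetylation differed after osimertinib. Distal regions of KLF4 and KLF6 lost acetylation and no KLF region was called higher. With edgeR's quasi-likelihood test, adjusted over 157919 tested regions, 6 of the 53 KLF regions were lower and 0 higher, and all 6 were distal. At an unadjusted p under 0.05 10 regions were lower and 0 higher, and DESeq2 called 7 lower and 0 higher. Across all regions 5.13% were called lower and 5.58% higher. Among distal regions 6 of 28 KLF regions (21.4%) were called lower, against a background of 10.8% of annotated distal regions. In 19 of the 28 (67.9%) every osimertinib DTP library lay below every DMSO library, against 31.0% of annotated distal regions. KLF6 held 19 of these 28 regions, 5 of the 6 calls and 15 of the 19 that did not overlap. Its regions are neighbours at 1 locus, so the shares are not counts of independent regions. Every osimertinib DTP library lay above every DMSO library in 1 of the 28 and in 3 of the 53 KLF regions. The upward share over all regions was not counted. The median log2 fold change was −0.96 at KLF distal regions and −0.06 at all distal regions. Against the 25734 distal regions with a peak in all 3 DMSO libraries the gap was smaller: 15.3% of those were called lower, 43.9% did not overlap downward and their median was −0.61. Of the 6 regions called, 5 had a peak in all 3 libraries of DMSO alone and so entered the annotation through the group in which they were high. At promoters 0 of 17 were called, against 4.63% of annotated promoter regions, with 0 at an unadjusted p under 0.05 and 0 by DESeq2, and with a median of 0.49 against 0.35. Without both libraries that stood apart the promoter medians were −0.09 for KLF and −0.18 for all promoters, so the sign of the promoter shift rested on osimertinib DTP replicate 2. The distal median was then −0.95, and 12 of 28 KLF distal regions (42.9%) were lower against 22.6% of annotated ones. DMSO replicate 2, which had the most counts, weighed most on the calls: without it 0 of the 53 regions were lower here and 3 in the comparison with AZD5153. Without it the lower calls over all regions fell too, from 8107 of 157919 to 482 of 164143 for osimertinib DTP. With AZD5153 they fell from 14232 to 4526.

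**Figure D1:**
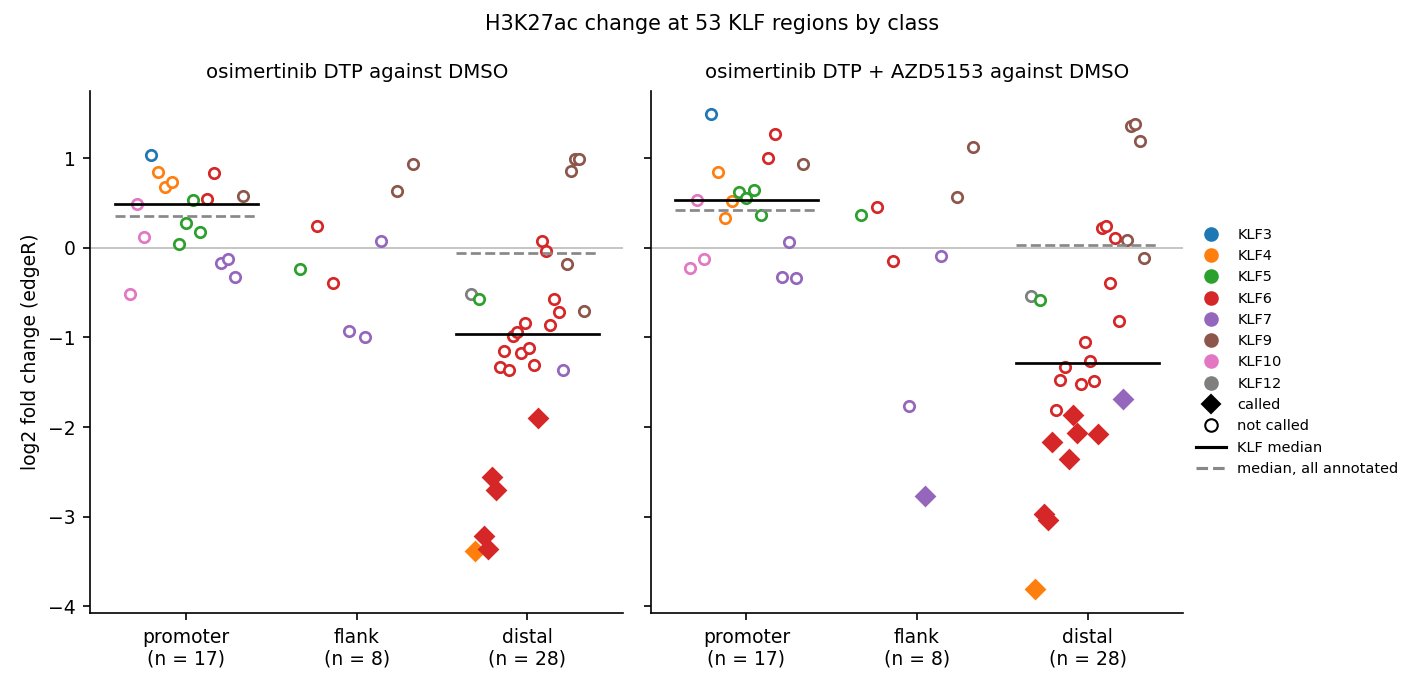
Log2 fold change against DMSO (y axis) of each of the 53 KLF regions, by class (x axis) and gene (colour), for both treated groups; diamonds are regions called at an adjusted p under 0.05. The promoter and distal KLF medians (solid) were 0.49 and −0.96 for osimertinib DTP and 0.53 and −1.29 with AZD5153, and dashed lines are the medians of all annotated regions of the class.

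KLF4, one of the reprogramming factors and a regulator of epithelial differentiation, had the most negative log2 fold change of the KLF regions in both comparisons with DMSO. Its only distal region, chr9:107504291-107504792, is intergenic and 13.8 kb upstream of the start. It held 13.9, 27.1 and 18.9 CPM in the DMSO libraries, 2.58, 1.81 and 1.31 CPM in osimertinib DTP, and 2.2, 1.63 and 0.193 CPM with AZD5153. Every treated library lay below every DMSO library. The region had a peak in all 3 DMSO libraries and in no treated one, as had the KLF6 regions at chr10:3739095-3739596 and chr10:3689572-3690073, so these 3 were in the annotation only through DMSO. The log2 fold change was −3.38 ± 0.68 (SE) with an adjusted p of 0.00693 for osimertinib DTP, and −3.81 ± 0.70 with an adjusted p of 0.00249 with AZD5153. Leaving out DMSO replicate 2 ended the call for osimertinib DTP (adjusted p = 0.0596), as did leaving out osimertinib DTP replicate 3, while the call with AZD5153 held in all 9 fits that left out 1 library. No KLF4 promoter region was called. The region over its start, chr9:107489985-107490486, held 14.5, 21.7 and 12.6 CPM in DMSO, 12, 54.6 and 14.3 CPM in osimertinib DTP, and 15.4, 17.9 and 36.7 CPM with AZD5153. The groups overlapped, with log2 fold changes of 0.73 ± 0.62 (adjusted p = 0.517) and 0.52 ± 0.62 (adjusted p = 0.615).

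KLF6, a growth-restraining factor that is widely expressed in epithelium, lost acetylation over a long stretch downstream of the gene. The 14 distal regions between 16.4 and 90.1 kb downstream of the starts that the annotation names all had negative log2 fold changes in both treated groups. All but 1 of them overlapped long noncoding RNA loci of RefSeq, such as LOC105376360 and LOC105376363, and none overlapped the KLF6 gene. The region at chr10:3739095-3739596, 40.6 kb downstream, held 4.35, 4.75 and 4.43 CPM in DMSO. It fell to 0.574, 0.278 and 0.403 CPM in osimertinib DTP and 0.601, 0.582 and 0.387 CPM with AZD5153, with log2 fold changes of −3.36 ± 0.66 (adjusted p = 0.00631) and −3.04 ± 0.66 (adjusted p = 0.00555). DMSO libraries lay close together here and far above the treated ones. The farthest region, chr10:3689572-3690073, held 3.54, 5.58 and 5.13 CPM in DMSO, 0.860, 0.417 and 0.201 CPM in osimertinib DTP, and 0.902, 0.582 and 0.193 CPM with AZD5153. Its log2 fold changes were −3.21 ± 0.72 (adjusted p = 0.0111) and −2.97 ± 0.72 (adjusted p = 0.00976). Of 9 fits that left out 1 library, its call was lost in 4 for osimertinib DTP (adjusted p up to 0.0818). With AZD5153 it was lost in 2 (up to 0.0578). The osimertinib DTP call at chr10:3739095-3739596 was lost in 1 (adjusted p = 0.0585), and its call with AZD5153 held in all 9.

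Beside the region 40.6 kb downstream, that at chr10:3739701-3740202 fell by 2.56 ± 0.74 on the log2 scale in osimertinib DTP (adjusted p = 0.0354) and by 2.17 ± 0.73 with AZD5153 (adjusted p = 0.0475). The next, chr10:3740220-3740721, held 10.4, 22.5 and 9.86 CPM in DMSO, 2.96, 1.95 and 1.61 CPM in osimertinib DTP, and 6.01, 5.35 and 0.580 CPM with AZD5153. It was called lower in osimertinib DTP (log2 fold change −2.70 ± 0.71, adjusted p = 0.0228) and not with AZD5153 (−1.81 ± 0.68, adjusted p = 0.0728), and the difference between the treated groups was 0.89 ± 0.69 (adjusted p = 1.0). A closer region, chr10:3763351-3763852, held 11.2, 19.2 and 9.65 CPM in DMSO, 3.15, 4.04 and 3.52 CPM in osimertinib DTP, and 4.11, 3.84 and 1.35 CPM with AZD5153. Its log2 fold changes were −1.90 ± 0.57 (adjusted p = 0.0408) and −2.08 ± 0.58 (adjusted p = 0.0199). These calls were the least stable for osimertinib DTP, lost in 6, 5 and 7 of 9 fits that left out 1 library, with the highest adjusted p of each (0.194, 0.149 and 0.235) without DMSO replicate 2. With AZD5153 the call at chr10:3739701-3740202 was lost in 7 of the 9, with an adjusted p of up to 0.204, and also without TMM, with a loess offset and in the fit on only both groups.

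No region at the KLF6 gene itself was called. Its 2 promoter regions had positive log2 fold changes of 0.54 and 0.84 in osimertinib DTP, not called, and the 2 distal regions over its 3' end, 3.2 and 3.7 kb downstream, had −0.03 and 0.08. The 3 regions 20.1 to 21.5 kb upstream, among the most acetylated distal KLF regions, were at −0.57 to −0.86 in osimertinib DTP and at −0.82 to 0.11 with AZD5153, none called. The region at chr10:3806765-3807266, for example, held 32.0, 42.2 and 32.6 CPM in DMSO, 20.7, 20.2 and 23.9 CPM in osimertinib DTP, and 27.5, 23.7 and 9.08 CPM with AZD5153. Both treated groups lay below DMSO there without reaching the threshold (adjusted p = 0.421 and 0.297).

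**Figure D2:**
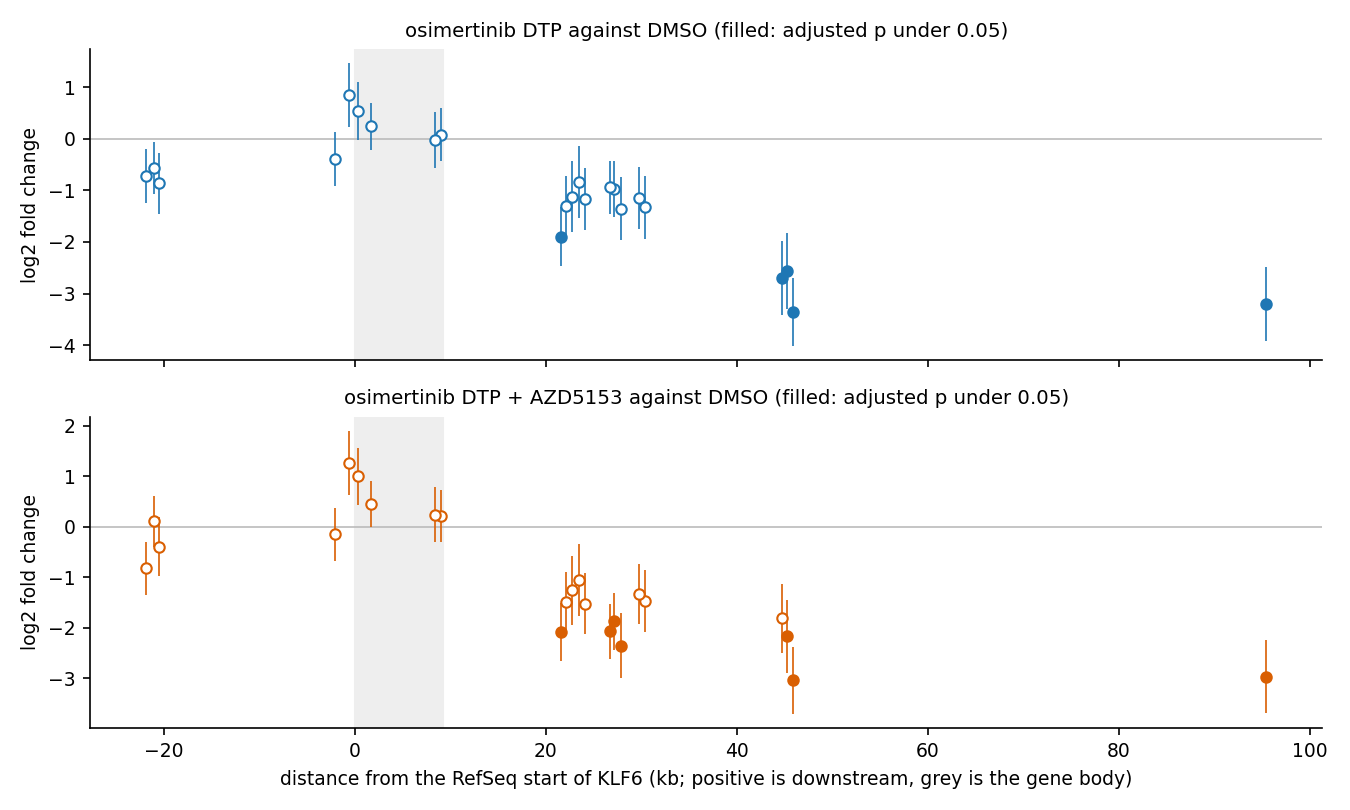
Log2 fold change against DMSO with its SE (y axis) at the 23 KLF6 regions, by distance of the region's centre from the RefSeq start of KLF6 in kb (x axis; positive is downstream, grey is the gene body of 9.2 kb). Regions from 21.6 kb downstream outward all lay below 0 in both panels, while regions at the start and over the gene lay near or above 0.

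The 5 distal regions of KLF9 are given further below, and KLF5, KLF7 and KLF12 had a single distal region each. KLF7 had 1, chr2:207184558-207185059, 17.3 kb upstream of a start, with 11.8, 16.9 and 10.3 CPM in DMSO, 6.02, 4.59 and 4.53 CPM in osimertinib DTP, and 5.81, 4.54 and 1.55 CPM with AZD5153. All treated libraries lay below DMSO, and the region was called with AZD5153 (−1.69 ± 0.57, adjusted p = 0.0483) and not for osimertinib DTP alone (−1.36 ± 0.57, adjusted p = 0.132). That call was lost in 8 of 9 fits without 1 library, with an adjusted p of up to 0.19. KLF5, the pro-growth member, had 1 distal region 15.1 kb downstream at 11.3 ± 4.67 CPM in DMSO and 7.63 ± 2.02 and 7.54 ± 3.20 CPM in the treated groups, and these overlapped. KLF12, a CtBP-recruiting repressor, had 1 intronic region at chr13:73938524-73939025. It held 7.07, 11.7 and 8.15 CPM in DMSO, 6.12, 5.98 and 6.75 CPM in osimertinib DTP, and 5.31, 12.3 and 0.580 CPM with AZD5153. Its log2 fold changes of −0.51 ± 0.69 and −0.54 ± 0.69 did not pass the test (adjusted p = 0.714 and 0.642).

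The second comparison set the sequential treatment against DMSO, with the same DMSO libraries as the first. Distal regions of KLF4 and KLF6 were again lower, and regions of KLF7 were called too. Of the 53 KLF regions 10 were lower and 0 higher (16 and 5 at an unadjusted p under 0.05, 13 and 0 by DESeq2), where 9.01% of all tested regions were lower and 9.05% higher. Without TMM the split over all regions was 15152 lower and 9564 higher, and with a loess offset 12968 and 18351. Among distal regions 9 of 28 (32.1%) were lower, against 16.1% of annotated distal regions, and in 16 (57.1%) the groups did not overlap downward, against 28.0%. Neighbouring KLF6 regions made up 7 of these 9 calls and 14 of the 16. Every AZD5153 library lay above every DMSO library in 3 of the 28 and in 10 of the 53 KLF regions, 5 of them at promoters. The upward share over all regions was not counted here either. The median was −1.29 at KLF distal regions and 0.03 at all distal regions. Among distal regions with a peak in all 3 DMSO libraries 22.8% were lower, 39.5% did not overlap downward and the median was −0.61. Of the 10 regions called, 6 had a peak in all 3 libraries of DMSO alone. At promoters 0 of 17 were called, against 8.5% of annotated promoter regions, with 1 at an unadjusted p under 0.05 and 0 by DESeq2, and with medians of 0.53 and 0.42. Without both libraries that stood apart, 12 of 28 distal regions (42.9%) were lower against 23.8%, and the median was −0.75 against 0.25. In that fit 8 KLF regions were also called higher, 6 of KLF9 and 2 of KLF5, where 14.7% of annotated promoter, 25.0% of flank and 31.9% of distal regions were higher. Of the regions called lower, 5 were called in both comparisons and 11 in either.

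Beyond the regions above, 3 neighbouring KLF6 regions between 21.4 and 22.7 kb downstream were called in the second comparison. The region at chr10:3758295-3758796 held 10.9, 16.4 and 10.2 CPM in DMSO, 5.93, 6.12 and 7.45 CPM in osimertinib DTP, and 2.71, 3.84 and 2.32 CPM with AZD5153. The 3 groups did not overlap and stood in that order. Its log2 fold change was −2.07 ± 0.54 against DMSO (adjusted p = 0.0143) and −1.13 ± 0.53 against osimertinib DTP (adjusted p = 1.0). The other 2 had log2 fold changes of −2.35 ± 0.64 (adjusted p = 0.0188) and −1.87 ± 0.56 (adjusted p = 0.0284). Of 9 fits that left out 1 library, the call at chr10:3758295-3758796 was lost in 2, with an adjusted p of up to 0.0877. The calls at the other 2 were lost in 3 and 4, with an adjusted p of up to 0.0862 and 0.151. The last was also lost in the fit on only both groups. KLF7 had a flank region where the 3 groups also stood apart in that order, at chr2:207122496-207122997, inside the gene and 1.4 kb downstream of an internal start. It held 5.35, 5.99 and 6.24 CPM in DMSO, 3.73, 1.67 and 3.32 CPM in osimertinib DTP, and 0.902, 0.698 and 0.966 CPM with AZD5153. It was called against DMSO (−2.77 ± 0.60, adjusted p = 0.00568) and the call held without each of the 9 libraries. Against osimertinib DTP it was −1.77 ± 0.60 (adjusted p = 1.0), and −2.07 with an adjusted p of 0.0496 without both libraries that stood apart.

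**Figure D3:**
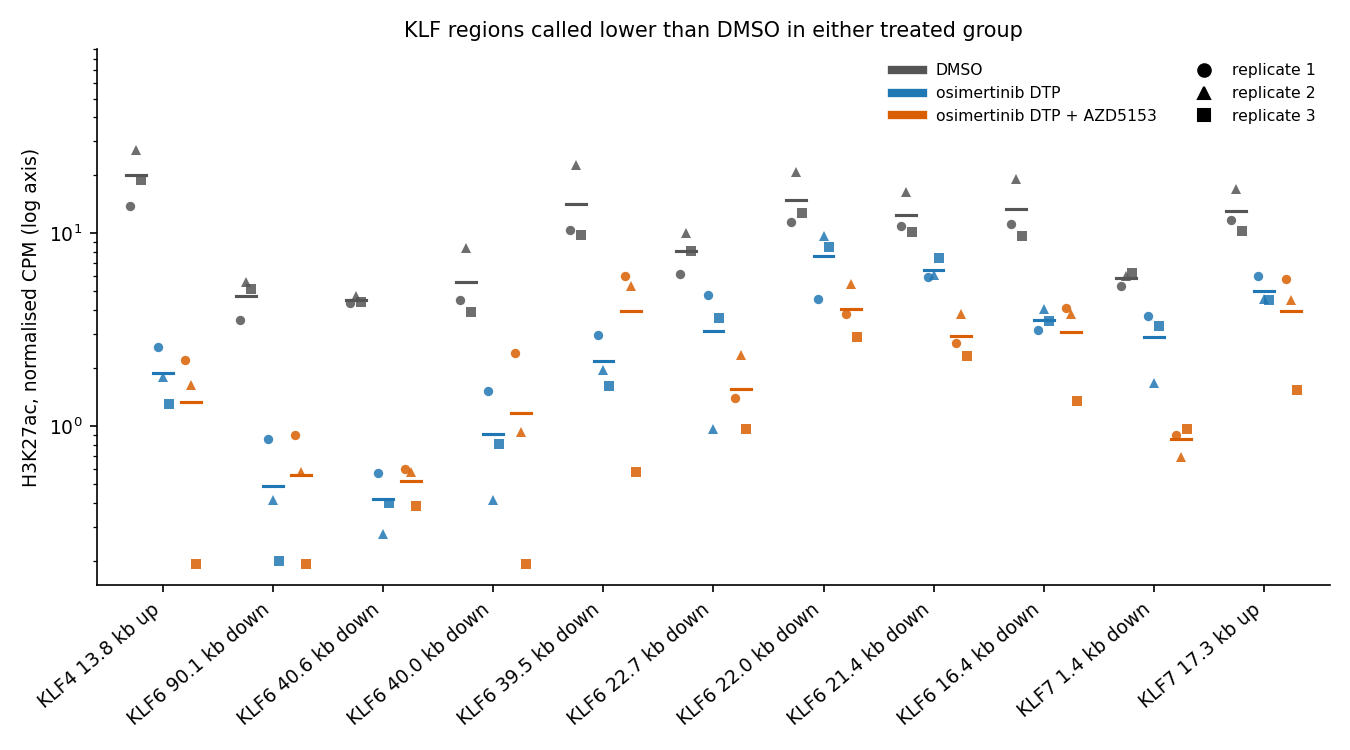
H3K27ac of each library as TMM-scaled CPM (y axis, log scale) at the 11 KLF regions called lower than DMSO in either treated group, by gene and distance from the annotated start (x axis); points are libraries, shapes replicates and bars group means. DMSO libraries (grey) lay above all treated libraries in each region, from 13.9 to 27.1 against 0.193 to 2.58 CPM at the KLF4 region.

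KLF9, a stress- and hormone-responsive repressor, had higher mean levels in the treated groups at its promoter, its flank regions and the regions 4.6 to 5.8 kb upstream, without passing the test. Its regions from 3.8 to 5.8 kb upstream overlap KLF9-DT, the divergent transcript of the gene, and were among the most acetylated distal KLF regions. The region at chr9:70419712-70420213 held 17.2, 23.5 and 19.2 CPM in DMSO, 25.8, 70.1 and 23.1 CPM in osimertinib DTP, and 34.2, 44.3 and 77.9 CPM with AZD5153. All AZD5153 libraries lay above all DMSO libraries, with a log2 fold change of 1.38 ± 0.55 (adjusted p = 0.0915), and the highest values were in the 2 libraries that stood apart. The regions on either side had 1.36 ± 0.59 (adjusted p = 0.122) and 1.19 ± 0.53 (adjusted p = 0.131), while the one nearest the start had 0.09 ± 0.49. The farthest KLF9 region, chr9:70438350-70438851 at 23.7 kb upstream, went the other way in osimertinib DTP. It held 4.72, 6.09 and 5.13 CPM in DMSO, 4.11, 2.64 and 2.92 CPM in osimertinib DTP, and 7.51, 5.7 and 1.35 CPM with AZD5153, with log2 fold changes of −0.71 ± 0.60 (adjusted p = 0.506) and −0.11 ± 0.59 (adjusted p = 0.925). All osimertinib DTP libraries lay below DMSO there, and the region had a peak in no osimertinib DTP library. The promoter region, chr9:70413996-70414497, held 19.6, 31.1 and 22.6 CPM in DMSO, 31.8, 50.4 and 27.2 CPM in osimertinib DTP, and 42.1, 49.7 and 49.1 CPM with AZD5153. Its log2 fold changes were 0.58 ± 0.48 (adjusted p = 0.501) and 0.94 ± 0.48 (adjusted p = 0.189). Without both libraries that stood apart these KLF9 regions were called higher with AZD5153: the promoter at 0.99 (adjusted p = 0.0079), the upstream ones at 0.83, 1.05 and 0.86 (adjusted p = 0.0228, 0.00581 and 0.0161) and both flank regions at 0.79 and 0.97 (adjusted p = 0.0401 and 0.0249).

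KLF10 was sensitive to a single library. Its promoter region 0.3 kb downstream of a start held 27.3, 30.4 and 33.7 CPM in DMSO, 21.2, 49.8 and 28.2 CPM in osimertinib DTP, and 12.5, 11.6 and 59.9 CPM with AZD5153. AZD5153 replicates 1 and 2 lay below all other libraries and replicate 3 above all, so the log2 fold change against DMSO was −0.13 ± 0.62 (adjusted p = 0.916). Without replicate 3 it was −1.34 (adjusted p = 0.0323), and without both libraries that stood apart −1.26 (adjusted p = 0.00265). KLF3, a CtBP-dependent repressor, had 1 promoter region, 645 bp upstream of the start and within KLF3-AS1. It held 11.2, 9.09 and 7.74 CPM in DMSO, 15.6, 33.4 and 9.06 CPM in osimertinib DTP, and 12.4, 11.3 and 55.5 CPM with AZD5153. The log2 fold changes of 1.04 ± 0.67 and 1.49 ± 0.67 did not pass (adjusted p = 0.354 and 0.135). The highest value of each treated group was in the same 2 libraries. Every AZD5153 library lay above every DMSO library, the lowest by little (11.3 against 11.2 CPM), while osimertinib DTP overlapped DMSO.

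**Figure D4:**
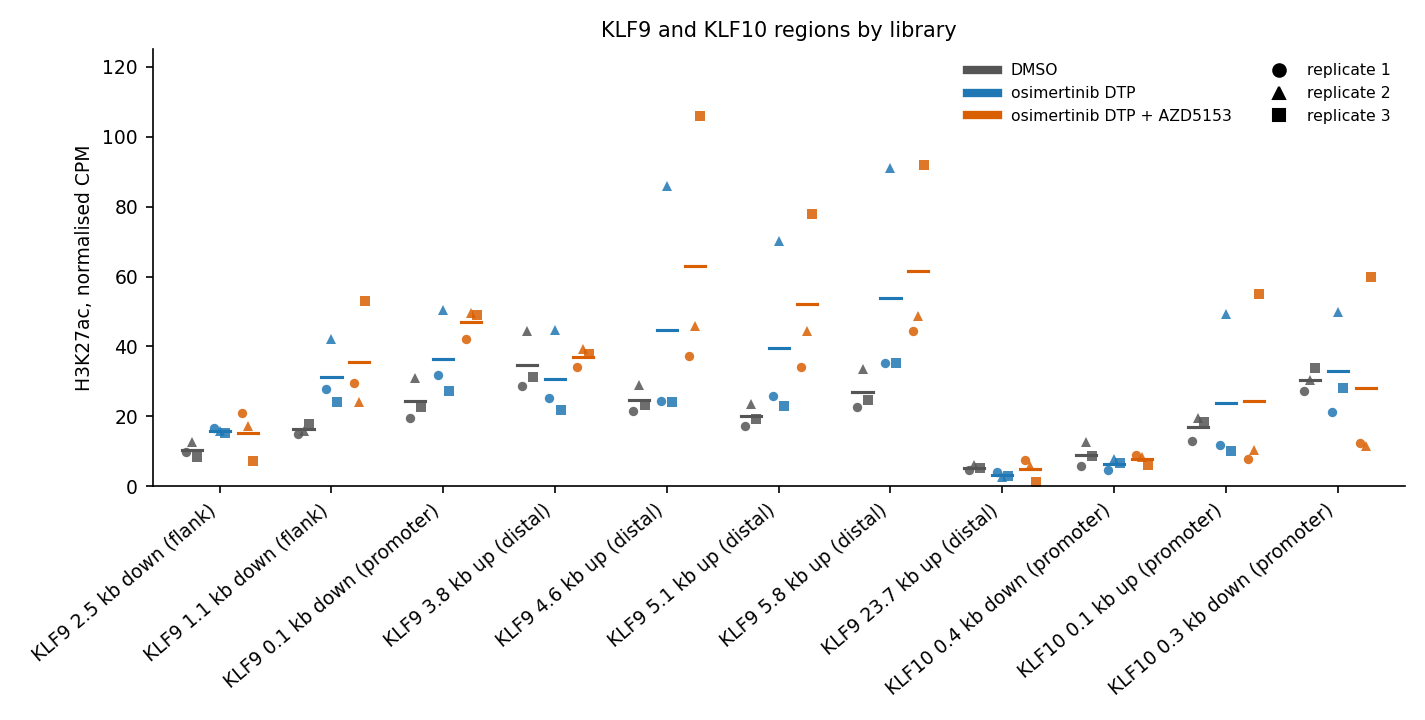
H3K27ac of each library as TMM-scaled CPM (y axis) at the 8 KLF9 and 3 KLF10 regions, by distance from the annotated start and class (x axis); points are libraries, shapes replicates and bars group means. Osimertinib DTP replicate 2 and AZD5153 replicate 3 were the highest points of their groups at the KLF9 regions 4.6 to 5.8 kb upstream (up to 91.0 and 106.0 CPM) and at 2 KLF10 regions.

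The third comparison set AZD5153 after osimertinib against osimertinib alone. No KLF region was called of 53, and 2 had an unadjusted p under 0.05, the KLF7 flank region and the KLF6 region 21.4 kb downstream. DESeq2 called 0 KLF regions, with 1 at an unadjusted p under 0.05. Over all 157919 regions edgeR called 0 (0.0%), with 7013 at an unadjusted p under 0.05, and DESeq2 called 16 higher and 64 lower. KLF promoter and distal medians were 0.18 and −0.02. Without both libraries that stood apart 1 KLF region was called lower, the KLF7 flank region, where 2.09% of annotated flank regions were. KLF distal regions then had a median of 0.50 and all distal regions one of 0.36.

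Counts were also summed over the regions of each gene, with CPM scaled within the class. KLF4, KLF5, KLF7 and KLF12 have 1 distal region each, so for them the sums are the counts of the regions above under another scaling and another adjustment, and only KLF6 and KLF9 add several regions. KLF4 had 44.0, 59.8 and 56.2 CPM of distal counts in DMSO, 8.39, 4.81 and 4.00 CPM in osimertinib DTP and 5.76, 3.66 and 1.01 CPM with AZD5153. The log2 fold changes were −3.21 ± 0.50 (adjusted p = 0.00146) and −3.77 ± 0.53 (adjusted p = 0.00057). KLF6 had 660.0, 741.0 and 585.0 CPM over its 19 distal regions in DMSO, against 361.0, 357.0 and 383.0 CPM in osimertinib DTP and 424.0, 382.0 and 329.0 with AZD5153. Its log2 fold changes were −0.85 ± 0.22 (adjusted p = 0.0126) and −0.81 ± 0.22 (adjusted p = 0.013), and both calls were lost without DMSO replicate 2 (adjusted p = 0.0721 and 0.0763). KLF7 had log2 fold changes of −1.20 ± 0.38 (adjusted p = 0.0301) and −1.62 ± 0.39 (adjusted p = 0.00695), and the first was lost without 5 of the 9 libraries, with an adjusted p of up to 0.113. For all 3 genes the order was DMSO above both treated groups, and the treated groups overlapped. So 3 of 6 genes with distal regions were lower in each comparison, where 15.9% and 19.2% of 8143 genes were. All 28 KLF distal regions had a peak in all 3 DMSO libraries, as 70.4% of annotated distal regions did. These shares over genes are therefore not a matched background, and no conclusion is drawn from them.

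The 3 other genes were not called on distal counts by edgeR over all 9 libraries, while DESeq2 called KLF9 higher with AZD5153. KLF5 stood at 30.0 ± 6.95, 22.5 ± 4.42 and 22.0 ± 1.12 CPM and KLF12 at 24.2 ± 1.70, 18.8 ± 2.54 and 14.9 ± 12.4 CPM in DMSO, osimertinib DTP and AZD5153. KLF9 had 300.0, 302.0 and 309.0 CPM in DMSO, against 374.0, 783.0 and 327.0 CPM in osimertinib DTP and 411.0, 414.0 and 1650.0 with AZD5153. All 6 treated libraries exceeded DMSO, and the log2 fold changes were 0.70 ± 0.53 (adjusted p = 0.335) and 1.44 ± 0.54 (adjusted p = 0.0531). The second was past the threshold with DESeq2 (1.38, adjusted p = 0.0305), without osimertinib DTP replicate 2 (1.40, adjusted p = 0.0464) and without AZD5153 replicate 1 or 2 (1.76 in both, adjusted p = 0.0269 and 0.0228). Leaving out AZD5153 replicate 1 or 2 gives more weight to replicate 3, which held 1650.0 CPM. The KLF9 distal sum was not past the threshold without replicate 3 or without both libraries that stood apart. On summed promoter counts 0 of 7 genes were called in either comparison, where 6.15% and 13.9% of 12295 genes were. At an unadjusted p under 0.05 there were 0 and 2, and DESeq2 called 0 and 1. The adjusted p ran from 0.404 to 0.908 and from 0.0911 to 0.912. The lowest was KLF6 with AZD5153, with 232.0, 213.0 and 202.0 CPM in DMSO, then 223.0, 293.0 and 242.0 CPM in osimertinib DTP and 274.0, 272.0 and 418.0 with AZD5153, a log2 fold change of 0.58 ± 0.20. Without both libraries that stood apart KLF9 rose on promoter counts by 0.53 ± 0.14 in osimertinib DTP (adjusted p = 0.0332) and by 0.89 ± 0.14 with AZD5153 (adjusted p = 0.00221), and KLF10 fell by 0.95 ± 0.20 with AZD5153 (adjusted p = 0.0071). Such calls were common in that fit. Of 12295 genes 1082 were higher and 1090 lower in osimertinib DTP, and 2254 higher and 2368 lower with AZD5153.

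**Figure D5:**
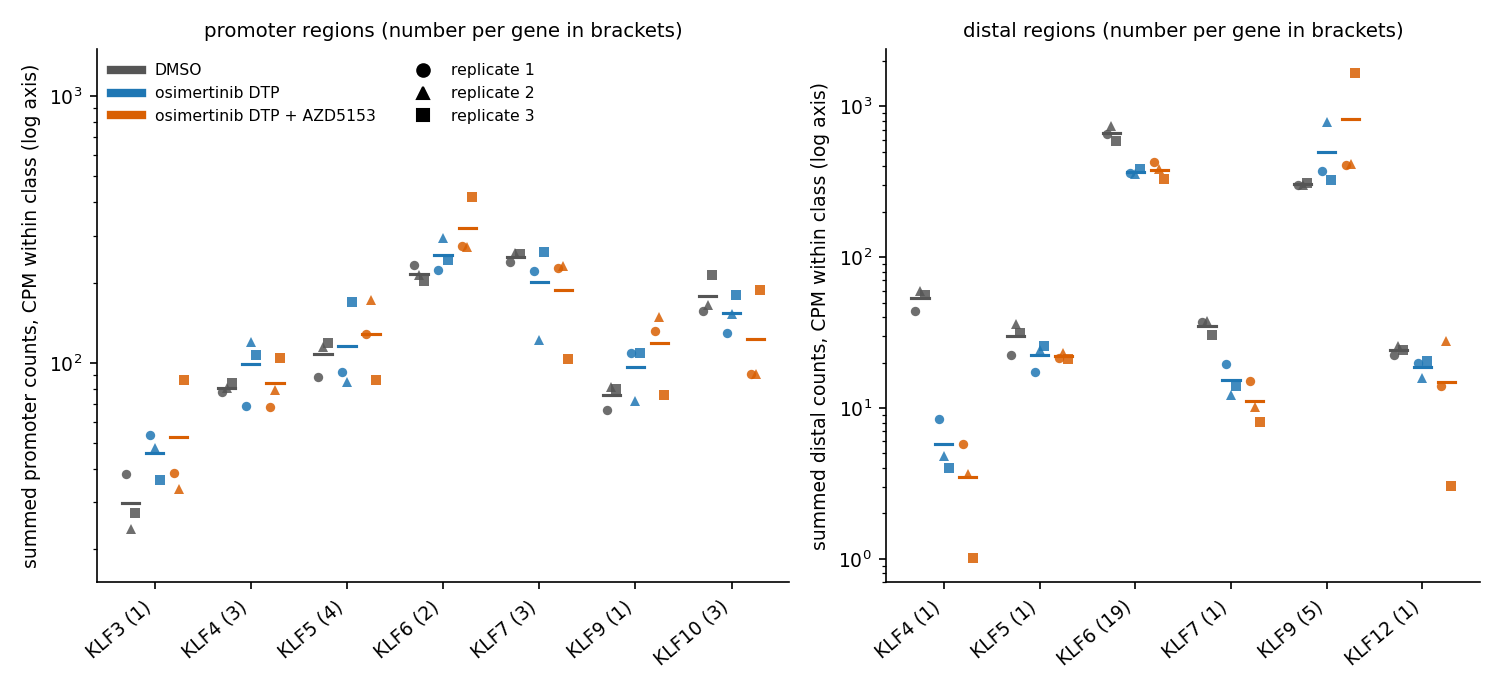
Summed counts per gene as CPM scaled within the class (y axis, log scale) for promoter regions (left) and distal regions (right), with the number of regions in brackets; points are libraries, shapes replicates and bars group means. Distal counts of KLF4, KLF6 and KLF7 lay below DMSO in all 6 treated libraries, and promoter counts overlapped apart from KLF6 and KLF7 with AZD5153.

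The deposited peak calls, made per library, are a second reading of the same libraries. In osimertinib DTP 40 KLF regions (75.5%) and with AZD5153 30 (56.6%) had a peak in all 3 libraries, where 75.9% and 55.6% of annotated regions did. All 53 KLF regions but only 75.8% of annotated ones had a peak in all 3 DMSO libraries. These shares are therefore not matched, and no conclusion is drawn from them. A peak in every DMSO library and in no osimertinib DTP library was found at 6 KLF regions, all distal (21.4% of the 28). Among annotated distal regions with a peak in all 3 DMSO libraries the share was 17.1%. With AZD5153 there were 7 such regions, 5 of them distal (17.9% against 18.2%), so the KLF shares lay near the background. The reverse, a peak gained in a treated group, could not occur at these regions.

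Genes that work with these factors were taken as 3 lists, to be read against the shares over all regions of 5.58% higher and 5.13% lower in osimertinib DTP and 9.05% and 9.01% with AZD5153. The listed regions are all annotated ones. Of annotated promoter, flank and distal regions 2.78, 6.9 and 9.79% were higher in osimertinib DTP and 1.85, 7.36 and 10.8% lower. With AZD5153 5.32, 10.6 and 14.3% were higher and 3.18, 12.7 and 16.1% lower. The 11 other KLF and SP genes with regions, of 17 listed, held 51 regions, of which 4 were higher and 1 lower in osimertinib DTP and 4 higher and 6 lower with AZD5153. Among them the single KLF8 promoter region rose by 1.82 ± 0.58 (adjusted p = 0.0499) in osimertinib DTP and SP5, a Wnt-responsive repressor, by 2.97 ± 0.74 (adjusted p = 0.0179). Cofactors and regulators (12 genes, 64 regions) had 4 higher and 0 lower in osimertinib DTP and 6 higher and 3 lower with AZD5153. The acetyltransferase CREBBP had 2 higher regions, up to 2.34 ± 0.60 (adjusted p = 0.0215), and MEF2A, which drives KLF2 and KLF4 in other tissues, had 2, up to 3.16 ± 0.76 (adjusted p = 0.0151). Known targets (9 of 10 genes, 69 regions) had 1 higher and 3 lower in osimertinib DTP and 2 higher and 10 lower with AZD5153. CDH1, the epithelial cadherin that KLF4 activates, held 24 of the regions and all 4 of the calls in osimertinib DTP. With AZD5153 it had 1 higher and 9 lower. Median log2 fold changes of the 3 lists were 0.33, 0.42 and −0.13 in osimertinib DTP and 0.12, 0.40 and −0.49 with AZD5153, beside 0.15 and 0.23 over all tested regions. Between the treated groups edgeR called 0 of the listed regions.

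The distal profile of each gene over the 9 libraries was set beside those of genes with at least 5 distal regions, by Pearson's r of log2 CPM. Nearest to KLF4 were EML6 (r = 0.993) and LAMC1 (r = 0.992), and nearest to KLF6 were LIPG (r = 0.979) and ESX1 (r = 0.978). KLF7 was nearest to HAO1 (r = 0.995), KLF9 to LINC00963 (r = 0.993), KLF12 to TAB3 (r = 0.982) and KLF5 to SIAH1 (r = 0.916). These are descriptions over 9 libraries that share groups and depth, chosen as the highest of 2586 or 2587 genes.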

How the data were processed

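H3K27ac ChIP-seq was run on H1975 chromatin (fixed for 15 min in 1% formaldehyde, sheared to 300 to 500 bp, 30 µg per library) and sequenced as 75 nt single-end reads. The submitters' processing notes name BWA 0.7.17, MACS2 2.2.6, featureCounts 2.0.0, ChIPseeker 1.29.1 and hg38, with no role or order given. The authors deposited read counts per region with no normalization, an annotated subset of these counts, and a peak list per library, with deposited fold enrichment as a ratio, −log10 p and −log10 q values, and scores. Peak thresholds and the treatment of duplicate reads are not given in the sources used here.

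Counts were tested with edgeR 4.0.16 in R 4.3.3 (limma 3.58.1): regions passing filterByExpr at its default (minimum count 10), TMM factors, 1 coefficient per group over all 9 libraries, robust quasi-likelihood F-tests, and Benjamini-Hochberg adjustment over all 157919 tested regions, called at 0.05. CPM are edgeR's values, scaled by library size times TMM factor. Gene values are counts summed per symbol over promoter or distal regions, tested over 12295 or 8143 genes. A peak was assigned to a region at an overlap of at least 1 bp. The scripts were tested on simulated data. Groups came from the sample titles. Both comparisons with DMSO share the DMSO libraries.

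Samples with the same replicate number deviated together between osimertinib DTP and DMSO (Pearson's r of deviations from the group means 0.334, 0.355 and 0.324), but not in every pair of the others (0.243, 0.026 and −0.24 between the treated groups, −0.018, 0.553 and 0.362 between AZD5153 and DMSO). No replicates agreed within sampling noise (lowest chi-square per degree of freedom 4.188).

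Named were all members, the promoter and distal region of each with the highest mean CPM, up to 8 higher and 8 lower called regions per comparison, and 2 similar genes per member; regions named beyond these were chosen after their values were seen. The members, lists and tests were chosen with earlier results of these data known. The alternatives were a fit with DESeq2 1.42.0, scaling by library size alone, an offset fitted by loess, no filter on low counts, annotated regions only, only both groups, a replicate block, saturation-corrected counts, each library left out, a threshold of 0.01, promoters within 3 kb, and for peaks −log10 q of at least 5 or a larger overlap. Leaving out both libraries with a high promoter share was added after seeing the data. No genome sequence was used, so sequences of distal regions are not shown.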

Additional observations from a re-analysis of the deposited data

How the results depend on the processing

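In none of the alternatives did a called KLF region or gene change sign. Fitted on only both groups, osimertinib DTP against DMSO gave 10 KLF regions lower, and AZD5153 against DMSO 6 lower and 1 higher. Over all regions these fits called 18728 of 146480 and 8491 of 142167 lower. At an adjusted p under 0.01 these comparisons gave 2 and 4 lower regions and 1 gene on distal counts for osimertinib DTP. With both libraries of high promoter share left out they gave 12 lower for osimertinib DTP, 8 higher with AZD5153, 1 lower between the treated groups, and 1 and 2 genes on promoter counts. Over all 12295 genes that fit called 1082 higher and 1090 lower on promoter counts for osimertinib DTP, and 2254 and 2368 with AZD5153. On annotated regions only, 3 regions were higher with AZD5153, and DESeq2 called 1 gene on promoter counts, KLF6. Leaving out 1 library gave 0 to 11 regions lower for osimertinib DTP: 0 and 2 without DMSO replicates 2 and 3, 3, 2 and 1 without osimertinib DTP replicates 1, 2 and 3, and 11 without AZD5153 replicate 3. Genes on distal counts then numbered 1 to 3, with 1 without DMSO replicate 2 or osimertinib DTP replicate 2. With AZD5153 the range was 3 to 13 lower, with 3 and 4 without DMSO replicates 2 and 3 and 6 without AZD5153 replicate 1. It was 0 to 2 for higher regions (2 without osimertinib DTP replicate 2) and for genes on promoter counts (KLF9 and KLF10, without AZD5153 replicate 3). Without AZD5153 replicate 3, 1474 of 12295 genes were higher and 1604 lower on promoter counts with AZD5153. Calls over all regions moved too. For osimertinib DTP 8107 of 157919 were lower in the main fit, 482 of 164143 without DMSO replicate 2 and 20489 of 161758 without AZD5153 replicate 3. With AZD5153 the lower regions in these fits numbered 14232, 4526 and 27986. The cause of these differences was not tested. Over all regions the median log2 fold change with AZD5153 was 0.23 with TMM, −0.02 by library size alone and 0.35 with a loess offset, and the lower KLF regions numbered 10, 9 and 10. With the replicate number as a block 6 and 10 KLF regions were lower, each called region was still called, with an adjusted p of at most 0.0454, and no call changed. Counts at the regions called lower were few in treated libraries, which limits how closely their size can be known.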

Other observations

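Regions near the KLF genes to which the deposited annotation gave another gene or none were chosen for a look after the values of all regions were seen. KLF12 has 1 annotated region but spans a long stretch of chromosome 13, and 36 other counted regions lay within its RefSeq bounds or 100 kb of them. Of the 31 tested, 2 were higher and 10 lower in osimertinib DTP, and 3 higher and 11 lower with AZD5153. Over all tested regions 5.58% were higher and 5.13% lower in osimertinib DTP, and 9.05% and 9.01% with AZD5153. As the neighbourhoods were picked with their values known, their counts are descriptions. The region starting at chr13 position 74244224 held 94, 174 and 130 counts in DMSO, against 7, 0 and 6 counts in osimertinib DTP and 6, 0 and 0 with AZD5153. The one at 73816416, with no annotation, held 22, 77 and 54 counts in DMSO, against 0, 0 and 3 counts in osimertinib DTP and 2, 3 and 0 with AZD5153. Their log2 fold changes in osimertinib DTP were −4.84 ± 0.91 (edgeR adjusted p = 0.00525) and −5.41 ± 1.03 (adjusted p = 0.00567).

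Near KLF4, 3 of 7 other regions were lower in both treated groups. The one at chr9 position 107503215, beside the KLF4 region 13.8 kb upstream of the start, held 26, 18 and 35 counts in DMSO, then 6, 1 and 2 counts in osimertinib DTP and 1, 0 and 2 with AZD5153. Another, at 107389933 and assigned to LINC01509, held 79, 149 and 130 counts in DMSO, then 17, 4 and 8 counts in osimertinib DTP and 6, 0 and 3 with AZD5153. Near KLF9, of 11 other regions 1 was higher in osimertinib DTP and 3 with AZD5153, and 0 were lower. The region at chr9 position 70488398 held 5, 2 and 6 counts in DMSO, then 20, 10 and 21 counts in osimertinib DTP and 106, 27 and 14 with AZD5153. Its log2 fold changes were 2.07 ± 0.73 (edgeR adjusted p = 0.0755) and 3.67 ± 0.74 (adjusted p = 0.0039).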
